A study of Rattus norvegicus with 14 samples.

Results

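Decorin (Dcn), biglycan (Bgn), asporin (Aspn), lumican (Lum), fibromodulin (Fmod), proline and arginine rich end leucine rich repeat protein (Prelp) and osteoglycin (Ogn) are small leucine-rich proteoglycan genes of the dermis, and their transcripts were followed in rat skin. Probes were taken where the accession in the scanner file, without its version, belonged to one of these symbols in rat RefSeq. All 7 genes were found, with 8 probes of the 30367 on the array, and all 7 were among the 18611 genes tested. Skin was taken from male CD hairless rats, 1 Agilent one-colour array for each of 14 animals. The exposed group was 6 rats that received 94 GHz millimetre waves for 3 h per day on 3 days per week over 5.5 months. The sham group was 8 rats that were sham exposed. No agent or allele beyond the strain is named for either group, ages are not given in the labels, and the rats lived 2 to a cage without a record here of which shared one. The comparison asked whether chronic exposure altered gene expression in skin.

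These proteoglycans are secreted by fibroblasts and consist of a leucine-rich repeat core that carries chondroitin, dermatan or keratan sulfate chains or, in some members, none. The core binds to collagen fibrils, limits their lateral growth and sets their spacing. Several members also bind transforming growth factor beta or related factors, and biglycan can act on Toll-like receptors. Mice without decorin have fragile skin with irregular collagen fibrils, and mice without lumican have skin laxity and cloudy corneas. By sequence, decorin, biglycan and asporin form class I of the family, lumican, fibromodulin and Prelp class II, and osteoglycin class III. In the RefSeq gene order Dcn and Lum were direct neighbours, followed by Kera and Epyc, with 0 coding genes between each pair. Ogn and Aspn had 1 coding gene between them, Omd, and Prelp and Fmod had 0.

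The RefSeq table (assembly GRCr8) held promoter windows for 4 of the 7 genes, from 250 bases before to 50 bases after the start of the gene. They are the 4 windows the table held, shown so that the sequence ahead of these genes stands beside their levels. They lie at chr7:34245456-34245755 on the plus strand for Lum, chr13:48045317-48045616 on the plus strand for Fmod, chr17:15258946-15259245 on the minus strand for Ogn and chr17:15310420-15310719 on the minus strand for Aspn. Capitals mark matches on either strand to TATAAA (the TATA box), CCAAT (the CCAAT box), TGANTCA (the AP-1 motif) and CAGAC (the SMAD motif).
Lum: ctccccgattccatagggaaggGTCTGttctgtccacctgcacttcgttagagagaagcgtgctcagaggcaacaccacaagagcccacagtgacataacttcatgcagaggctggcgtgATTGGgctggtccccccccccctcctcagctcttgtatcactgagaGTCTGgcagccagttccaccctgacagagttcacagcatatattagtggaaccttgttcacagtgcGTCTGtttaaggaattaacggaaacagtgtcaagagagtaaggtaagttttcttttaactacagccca
Aspn: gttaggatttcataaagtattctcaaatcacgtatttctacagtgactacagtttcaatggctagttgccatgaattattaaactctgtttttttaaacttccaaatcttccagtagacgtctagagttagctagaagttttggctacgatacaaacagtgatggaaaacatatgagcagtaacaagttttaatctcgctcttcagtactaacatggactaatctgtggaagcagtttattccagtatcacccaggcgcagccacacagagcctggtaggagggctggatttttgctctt
Fmod: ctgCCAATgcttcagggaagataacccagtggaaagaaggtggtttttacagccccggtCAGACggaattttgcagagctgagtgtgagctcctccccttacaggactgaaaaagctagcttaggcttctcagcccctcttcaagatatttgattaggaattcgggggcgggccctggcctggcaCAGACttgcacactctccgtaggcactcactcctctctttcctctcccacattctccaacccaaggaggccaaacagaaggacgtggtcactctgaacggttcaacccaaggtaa
Ogn: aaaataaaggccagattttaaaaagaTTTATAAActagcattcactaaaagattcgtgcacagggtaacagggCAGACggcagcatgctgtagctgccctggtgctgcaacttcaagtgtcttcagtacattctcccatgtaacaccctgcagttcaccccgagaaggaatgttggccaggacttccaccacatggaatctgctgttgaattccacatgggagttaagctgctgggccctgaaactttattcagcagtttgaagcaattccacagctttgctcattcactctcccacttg
The Lum window held 1 CCAAT match and 3 CAGAC matches, all on the reverse strand. The Fmod window held 1 CCAAT match and 2 CAGAC matches, and the Ogn window held 1 CAGAC match and a pair of overlapping TATAAA matches on opposite strands. The first bases of these TATAAA matches lay at -222 and -224 from the start of the gene, near the far end of the window. The Aspn window held none of the 4 motifs, which says only that these letters are not in that window. Over all 33469 promoter windows of the same length, 14.2% held TATAAA, 37.5% CCAAT, 7.33% TGANTCA and 50.1% CAGAC. The G+C content was 50.7% for Lum, 52.7% for Fmod, 46% for Ogn and 39% for Aspn, beside a median of 51.7% over all windows.

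All values below are log2 processed signals minus the 75th percentile of the same array, and all differences are exposed minus sham on that log2 scale. The 75th percentile was 1490 ± 311 scanner units in exposed arrays (SD, n = 6), from 1069 to 1945, and 1498 ± 339 in sham arrays (SD, n = 8), from 799.5 to 1946. All 10 epidermal keratinocyte markers on the array and 17 of the 18 fibroblast markers on it were measured, as were 17 of the 21 skeletal muscle markers and 14 of the 14 macrophage markers. The arrays lay on 4 slides. Slide 1 held 2 sham arrays, slide 2 held 2 exposed arrays, slide 3 held 3 exposed and 3 sham arrays, and slide 4 held 1 exposed and 3 sham arrays. Of the lists scored, skeletal muscle markers varied most between biopsies, with a list score (the mean gene-centred log2 value) from -1.61 to 4.25 in exposed skin and from -2.37 to 3.06 in sham skin. Sham animal 6 had the lowest array signal, and exposed animal 3 had the next lowest.

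No small leucine-rich proteoglycan gene passed the test between exposed and sham skin. Lum and Fmod had higher means in exposed skin, and Dcn, Bgn, Aspn, Prelp and Ogn had lower ones. The differences ran from -0.19 for Dcn to 0.19 for Lum, and the median over the 7 genes was -0.043, beside -0.021 over all genes tested. In limma, 0 of the 7 had an adjusted p under 0.05, where 0.0% of all 18611 genes did, and the adjusted p of every member was 0.999. Before adjustment, 0 of the 7 had a p under 0.05, against 3.45% of all genes. The values of the groups overlapped for all 7 genes, and they did not overlap for 0.0323% of all genes. The split of 2 higher to 5 lower stood beside 42.3% higher and 57.7% lower among all genes. In whole skin, fewer cells of a type and less RNA per cell cannot be told apart.

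**Figure D1:**
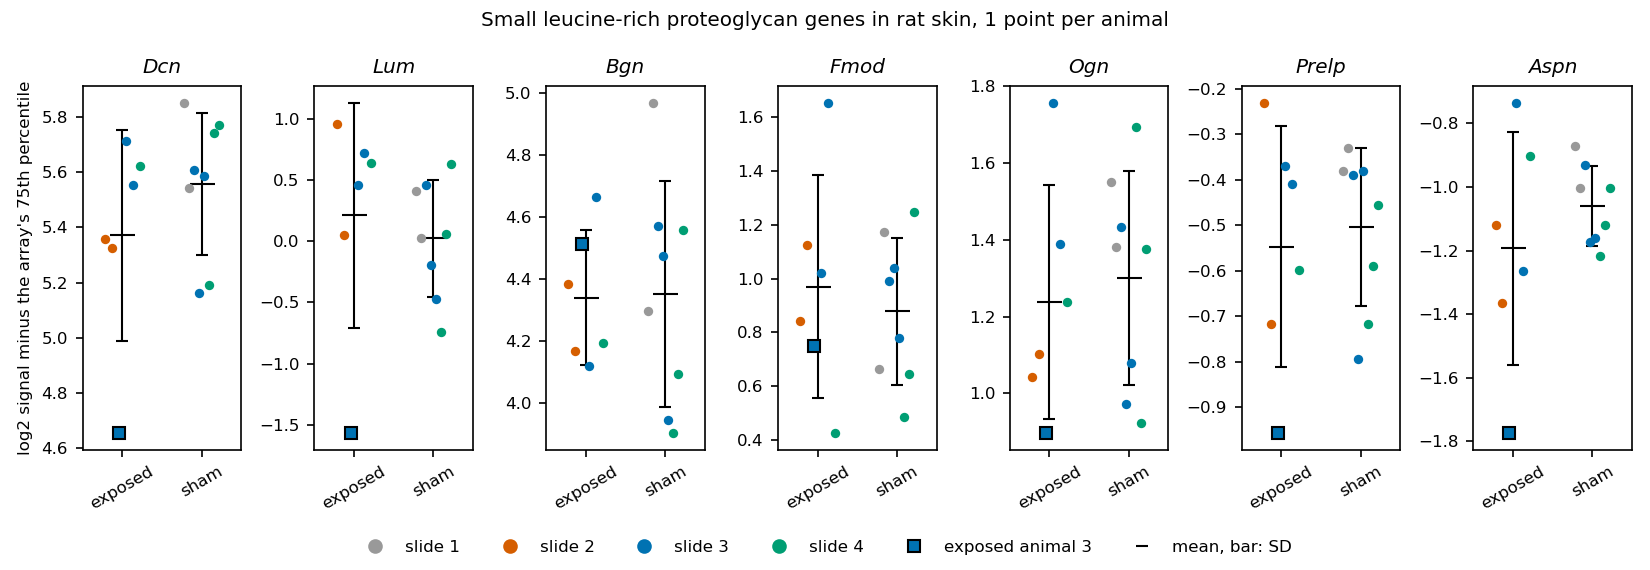
Level of each small leucine-rich proteoglycan gene in every animal (log2 signal minus the array's 75th percentile, own axis per gene), exposed left and sham right, coloured by slide, with the group mean and SD in black. The groups overlap in all 7 panels, and exposed animal 3 (square) is the lowest of the 14 animals for Dcn, Lum, Ogn, Prelp and Aspn.

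Among the class I genes, Dcn encodes decorin, the main dermatan sulfate proteoglycan of the dermal collagen fibril. Its level ran from 4.66 through a median of 5.46 to 5.71 in exposed skin, and from 5.16 through a median of 5.60 to 5.85 in sham skin. The lowest exposed animal lay below every sham animal, and the other exposed animals lay within the sham range. The means were 5.37 ± 0.38 in exposed and 5.56 ± 0.26 in sham skin (SD, n = 6 and 8), so exposed minus sham was -0.19, with 95% limits at -0.53 and 0.16. On the linear scale this was 0.879-fold, with an interval from 0.692 to 1.12. The two-sided exact permutation p over all 3003 splits of the animals was 0.323.

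Bgn encodes biglycan, the nearest relative of decorin, which carries a pair of glycosaminoglycan chains and is also a ligand of innate immune receptors. Its brighter probe ran from 4.12 through a median of 4.29 to 4.66 in exposed skin, and from 3.90 through a median of 4.39 to 4.97 in sham skin. All exposed animals lay within the sham range. The means were 4.34 ± 0.22 in exposed and 4.35 ± 0.36 in sham skin (SD, n = 6 and 8), so exposed minus sham was -0.011, with 95% limits at -0.35 and 0.33 (exact permutation p = 0.957). Bgn was the only one of the 7 genes with a second probe. That probe averaged -0.061 ± 0.45 in exposed and -0.24 ± 0.40 in sham skin, a difference of 0.18 and of the other sign. The probes correlated at r = 0.52 (Spearman rho = 0.64) over the 14 animals, and their mean gave a difference of 0.084.

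Aspn encodes asporin, which has an aspartate-rich start, carries no glycosaminoglycan chain and binds transforming growth factor beta. It ran from -1.77 through a median of -1.19 to -0.73 in exposed skin, and from -1.22 through a median of -1.06 to -0.87 in sham skin. Of the exposed animals 3 lay below every sham animal and 1 lay above every sham animal. The means were -1.19 ± 0.37 in exposed and -1.06 ± 0.13 in sham skin (SD, n = 6 and 8), so exposed minus sham was -0.13, with 95% limits at -0.42 and 0.15 (exact permutation p = 0.382). The SD in exposed skin was 2.93 times that in sham skin, the highest ratio among the 7 genes.

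Of the class II genes, Lum encodes lumican, a keratan sulfate proteoglycan in cornea that in skin binds collagen fibrils at the same region as fibromodulin. It ran from -1.56 through a median of 0.55 to 0.96 in exposed skin, and from -0.74 through a median of 0.043 to 0.63 in sham skin. In exposed skin 1 animal lay below and 3 lay above every sham animal. The means were 0.21 ± 0.92 in exposed and 0.023 ± 0.48 in sham skin (SD, n = 6 and 8), so exposed minus sham was 0.19, with 95% limits at -0.55 and 0.93 (exact permutation p = 0.646). That interval spans 0.681-fold to 1.90-fold and was the widest of the 7. Lum was also the most variable member, with an SD over the 14 animals of 0.68 that exceeded the SD of 95.2% of all genes, where the median gene had 0.24.

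Fmod encodes fibromodulin, which steers fibril growth and lysyl oxidase cross-linking of collagen. It ran from 0.43 through a median of 0.93 to 1.66 in exposed skin, and from 0.49 through a median of 0.89 to 1.25 in sham skin. One exposed animal lay below and another above every sham animal. The means were 0.97 ± 0.41 in exposed and 0.88 ± 0.27 in sham skin (SD, n = 6 and 8), so exposed minus sham was 0.091, with 95% limits at -0.28 and 0.46 (exact permutation p = 0.628). Its sign rested on exposed animal 5, the highest of all, since the difference was -0.046 without that animal.

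Prelp encodes a relative of fibromodulin whose arginine-rich start binds heparan sulfate and which links basement membrane to dermal collagen. It ran from -0.96 through a median of -0.50 to -0.23 in exposed skin, and from -0.79 through a median of -0.42 to -0.33 in sham skin. The means were -0.55 ± 0.27 in exposed and -0.50 ± 0.17 in sham skin (SD, n = 6 and 8), so exposed minus sham was -0.043, with 95% limits at -0.29 and 0.21 (exact permutation p = 0.705). Prelp varied least, with an SD over all animals of 0.21 that exceeded that of 40.9% of genes.

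The class III gene Ogn encodes osteoglycin, also called mimecan, which regulates collagen fibril thickness. It ran from 0.90 through a median of 1.17 to 1.76 in exposed skin, and from 0.92 through a median of 1.38 to 1.69 in sham skin. The exposed range slightly exceeded the sham range at both ends. The means were 1.24 ± 0.31 in exposed and 1.30 ± 0.28 in sham skin (SD, n = 6 and 8), so exposed minus sham was -0.063, with 95% limits at -0.38 and 0.26 (exact permutation p = 0.689).

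Of 11 other family members and relatives listed, 6 had probes and 4 were measured, and 0 of the 4 passed. Omd (osteomodulin), the gene between Ogn and Aspn, averaged -1.63 ± 0.30 in exposed and -1.61 ± 0.28 in sham skin, a difference of -0.017. Tsku (tsukushi) differed by -0.018, Chad (chondroadherin) by -0.061 and Nyx (nyctalopin) by 0.13. The corneal and cartilage genes next to Lum were at background in skin, since Kera (keratocan) was well above background on 0 of 14 arrays and Epyc (epiphycan) on 1.

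None of the 7 members was called between slides. In a limma fit with group and slide, 0.0% of all genes were called between slides, 2.77% had an unadjusted p under 0.05, and the unadjusted p of the 7 members ran from 0.373 (Bgn) to 0.805 (Aspn). With slide as a block the differences were -0.078 for Dcn, 0.071 for Bgn, -0.043 for Aspn, 0.18 for Lum, 0.014 for Fmod, -0.042 for Prelp and 0.094 for Ogn. Slides 1 and 2 each held a single group, so these differences come from slides 3 and 4 alone. Thus Bgn and Ogn changed sign, and 4 of the 7 had a positive difference, where the median over all genes was -0.036. On slide 3 alone (3 exposed and 3 sham animals) the Lum difference was -0.062, and on slide 4 alone (1 exposed and 3 sham animals) it was 0.66. On slides 3 and 4 the Fmod differences were 0.21 and -0.37, and the Aspn differences -0.17 and 0.21. Whether the exposure difference itself changed between slides 3 and 4 was tested as an interaction in limma. It was called for 0.0% of all genes, with 1.57% at an unadjusted p under 0.05, and 0 of the 7 members reached either mark.

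**Figure D2:**
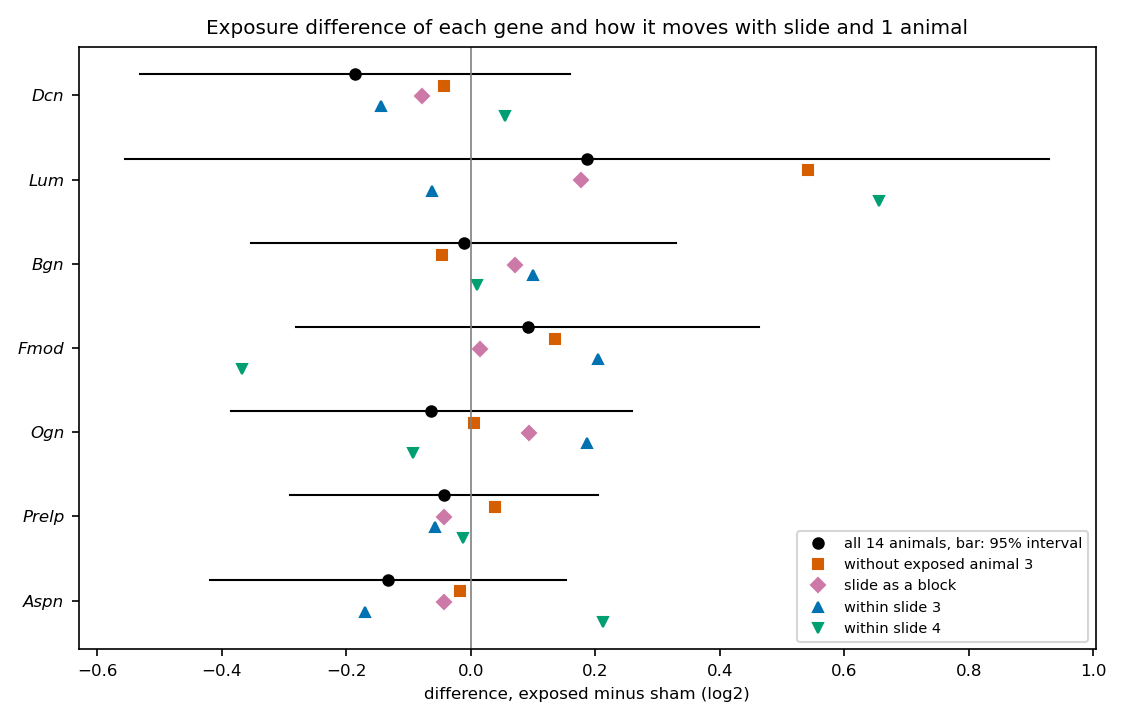
Difference of each gene, exposed minus sham (log2), from all 14 animals with its 95% interval (black), without exposed animal 3, with slide as a block and within slides 3 and 4. Every interval of the 14 animals includes 0, and Bgn and Ogn lie on the other side of 0 with slide as a block. With slide as a block the difference comes from slides 3 and 4 alone, which hold both groups.

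One exposed animal, number 3, set much of the spread in exposed skin for Dcn, Lum, Prelp and Aspn. Without it the exposed SD went from 0.92 to 0.34 for Lum and from 0.38 to 0.17 for Dcn. It went from 0.37 to 0.26 for Aspn and from 0.27 to 0.19 for Prelp. For Ogn it went from 0.305 to 0.286, for Fmod from 0.414 to 0.447 and for Bgn from 0.217 to 0.223. Exposed animal 3 was the lowest of all 14 for 5 of the 7 genes, at 4.66 for Dcn, -1.56 for Lum, 0.90 for Ogn, -0.96 for Prelp and -1.77 for Aspn. Over all genes, 10.7% were lowest in that animal, and 21.8% were lowest in sham animal 6. For Bgn exposed animal 3 had rank 10 from the lowest, at 4.51, and for Fmod rank 5, at 0.75. Sham animal 6 had rank 1 for Bgn, 2 for Lum and Fmod, 3 for Dcn, 4 for Prelp and Aspn, and 13 for Ogn. On the linear scale the other exposed animals averaged 4.38-fold the level of exposed animal 3 for Lum, 1.81-fold for Dcn and 1.62-fold for Aspn.

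The same array was lowest in several list scores. For the fibroblast markers its score was -0.53, where the other exposed animals ran from -0.25 to 0.22 and the sham animals from -0.18 to 0.19. For the collagens of the dermal fibril it was -0.59, where the other exposed animals ran from -0.27 to 0.22 and the sham animals from -0.23 to 0.28. The macrophage score was -0.72, where the other exposed animals ran from -0.46 to 0.44 and the sham animals from -0.11 to 0.31, and the adipocyte score was 0.43, where the other exposed animals ran from -0.32 to 0.14 and the sham animals from -0.54 to 0.18. Sham animal 6 was the lowest of all animals in other scores. These were endothelium (-0.83), smooth muscle (-0.58), adipocytes (-0.54), Schwann cells (-0.51) and epidermis (-0.29). Its array weight in limma was the lowest, at 0.127, and that of exposed animal 3 was the next lowest, at 0.420. What part tissue makeup or array signal had in the low values of either animal was not tested.

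Without exposed animal 3 the differences were 0.54 for Lum, -0.042 for Dcn, -0.046 for Bgn, 0.14 for Fmod, 0.0052 for Ogn, 0.039 for Prelp and -0.017 for Aspn. Lum then reached an unadjusted p of 0.0332 in limma, beside 5.35% of all genes at that mark, and its adjusted p was 0.914. The SD was larger in exposed than in sham skin for 6 of the 7 genes, against 39.9% of all genes. Without exposed animal 3 it was larger for 4 of the 7, against 31.4% of all genes.

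The pairs of the 7 genes differed in how closely they followed each other over the animals. In the main scaling r was positive for 17 of the 21 pairs, with a median of 0.33. After quantile normalization it was positive for 20, with a median of 0.42. Whether the 7 genes vary as 1 block was not tested. Of 21 pairs, 7 had a Pearson correlation past the threshold (permutation test with 100000 resamples, Benjamini-Hochberg over the 21 pairs), and 6 of these joined Dcn, Lum, Prelp and Aspn. The strongest was Dcn with Aspn, at r = 0.84 (permutation p = 0.00053, adjusted p = 0.0111) and rho = 0.74 (permutation p = 0.00343, adjusted p = 0.0720). The neighbours Dcn and Lum followed at r = 0.74 (permutation p = 0.00483, adjusted p = 0.0237) and rho = 0.50 (permutation p = 0.0686, adjusted p = 0.288). Lum with Prelp, Dcn with Prelp, Lum with Aspn and Prelp with Aspn lay between r = 0.69 and r = 0.73. Bgn with Fmod was the other called pair, at r = 0.63 (permutation p = 0.0152, adjusted p = 0.0457) and rho = 0.64 (permutation p = 0.0160, adjusted p = 0.158). By Spearman's rho 0 of the 21 pairs passed. How often pairs of other genes reach such an r over these arrays was not tested, so the count has no background beside it.

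No pair passed with fewer animals, and r fell in some pairs and settings and rose in others. With the 2 animals farthest from the median of the first gene left out, r was 0.66 for Dcn with Aspn, 0.38 for Dcn with Lum and 0.56 for Bgn with Fmod, and 0 of the 21 pairs passed. Without exposed animal 3, a setting chosen after the data were seen, r was 0.65, 0.44 and 0.67 for the same pairs, and 0 passed. Thus r for Bgn with Fmod was about as large as over all 14 animals, and the relation of Dcn with Lum rested on the animals left out. Within the 6 animals of slide 3, which include exposed animal 3, r was 0.88, 0.86 and 0.53, and 0 passed in the exact permutation test over the 720 orders. With so few orders a pass was hard to reach, so this test cannot decide whether the relations held there. Dcn with Prelp had r = 0.97 on slide 3, at an exact permutation p of 0.00278 and an adjusted p of 0.0583. After the group and slide means were removed 7 pairs passed. Bgn stood apart from Dcn, its nearest relative, at r = -0.062, and that value depended on the scaling, since it was 0.52 after quantile normalization. The second Bgn probe correlated with Lum at r = 0.71 and with Dcn at r = 0.32.

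Neighbouring genes were not always alike over the animals. The neighbours Dcn and Lum had r = 0.74, Ogn and Aspn r = 0.60 (permutation p = 0.0193, adjusted p = 0.0507), and Prelp and Fmod r = 0.27. Omd, which lies between Ogn and Aspn, had r = 0.79 with Ogn and 0.61 with Aspn, and 0.75 and 0.45 without exposed animal 3. These values describe 14 animals on shared arrays.

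**Figure D3:**
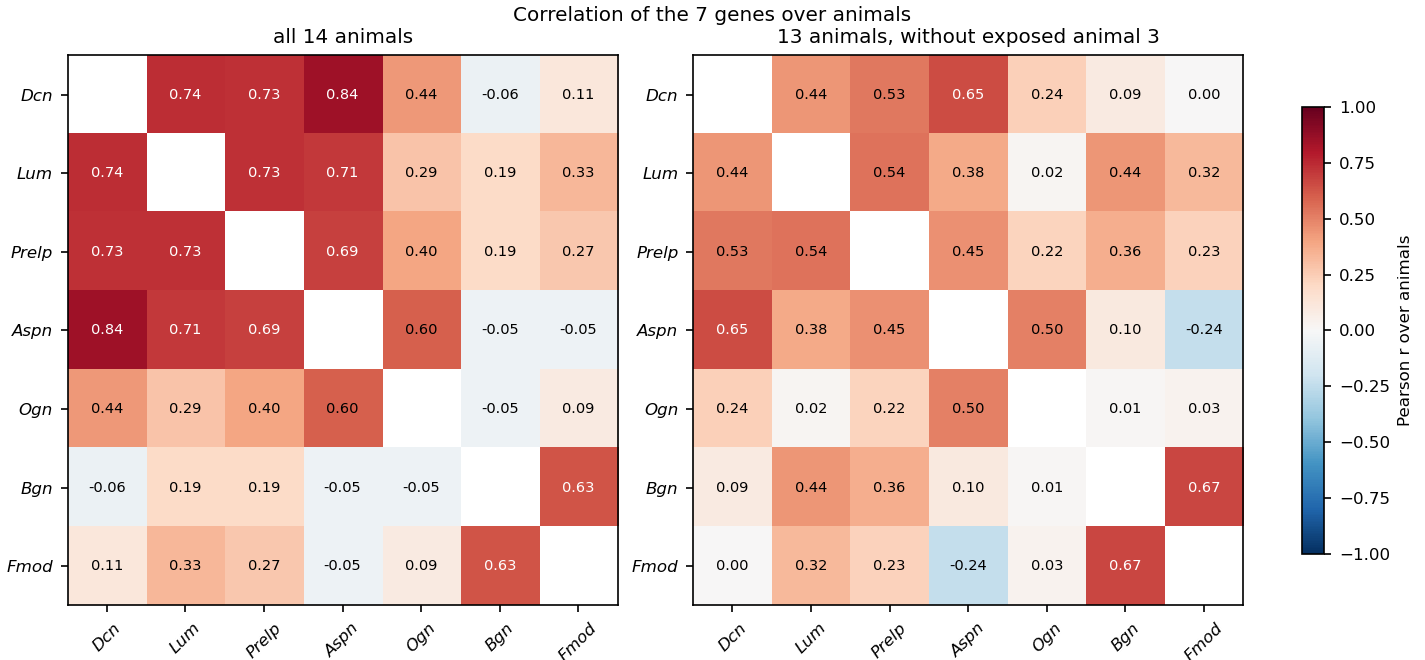
Pearson correlation of each pair of the 7 genes over all 14 animals (left) and over 13 animals without exposed animal 3 (right). Dcn, Lum, Prelp and Aspn have r from 0.69 to 0.84 among themselves on the left and from 0.38 to 0.65 on the right, and Bgn with Fmod has 0.63 and 0.67.

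Over the 14 animals Dcn, Lum, Prelp and Aspn correlated with the collagens by Pearson's r, and Dcn, Prelp and Aspn with the fibroblast markers. These relations also passed after quantile normalization, where further ones were added. By Spearman's rho or with fewer animals 0 passed. The 7 genes were set against 7 measures, which were the scores of dermal fibril collagens, fibroblast, skeletal muscle, hair follicle, epidermal and adipocyte markers and the array signal. Of these 49 relations 7 passed (permutation test, Benjamini-Hochberg over the 49), all of them with the fibroblast or the collagen score. How often other genes reach such an r with these scores was not tested. Prelp with the fibroblast score had r = 0.86 (permutation p = 9e-05, adjusted p = 0.00441) and rho = 0.72 (permutation p = 0.00517, adjusted p = 0.122). Dcn with the fibroblast score had r = 0.85 (permutation p = 0.00096, adjusted p = 0.0120) and rho = 0.67 (permutation p = 0.00998, adjusted p = 0.122). Aspn with the fibroblast score had r = 0.83 and adjusted p = 0.0120 by permutation, and with the collagen score r was 0.79 for Prelp, 0.72 for Lum, 0.71 for Aspn and 0.70 for Dcn.

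Lum with the fibroblast score missed the threshold at r = 0.72 (permutation, adjusted p = 0.0516), as did Ogn at r = 0.63 (permutation, adjusted p = 0.0546), and Bgn had r = 0.0028. By Spearman's rho 0 of the 49 relations passed, and 0 passed by Pearson's r without the 2 farthest animals, without exposed animal 3 or within slide 3. Prelp with the fibroblast score had r = 0.76 without the 2 farthest animals, 0.78 without exposed animal 3 and 0.96 within slide 3. Dcn with the fibroblast score had 0.62, 0.64 and 0.995 in the same settings. The last of these had an exact permutation p of 0.00556 and an adjusted p of 0.159. With array signal, Dcn had r = 0.62 (permutation p = 0.0233, adjusted p = 0.104) and Lum r = 0.57 (permutation p = 0.0372, adjusted p = 0.152), and neither passed. Without the 2 farthest animals these values were 0.32 for Dcn and -0.043 for Lum. After quantile normalization 13 of the 49 relations passed, which included array signal with Dcn (r = 0.87, permutation, adjusted p = 0.0031) and with Bgn (r = 0.67, permutation, adjusted p = 0.0361). Dcn with the epidermal score (r = 0.78), Bgn with the collagen score (r = 0.70, beside 0.33 in the main scaling), and Lum and Ogn with the fibroblast score (r = 0.71 and 0.67) passed there too. What part array signal had in the relations was not tested.

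**Figure D4:**
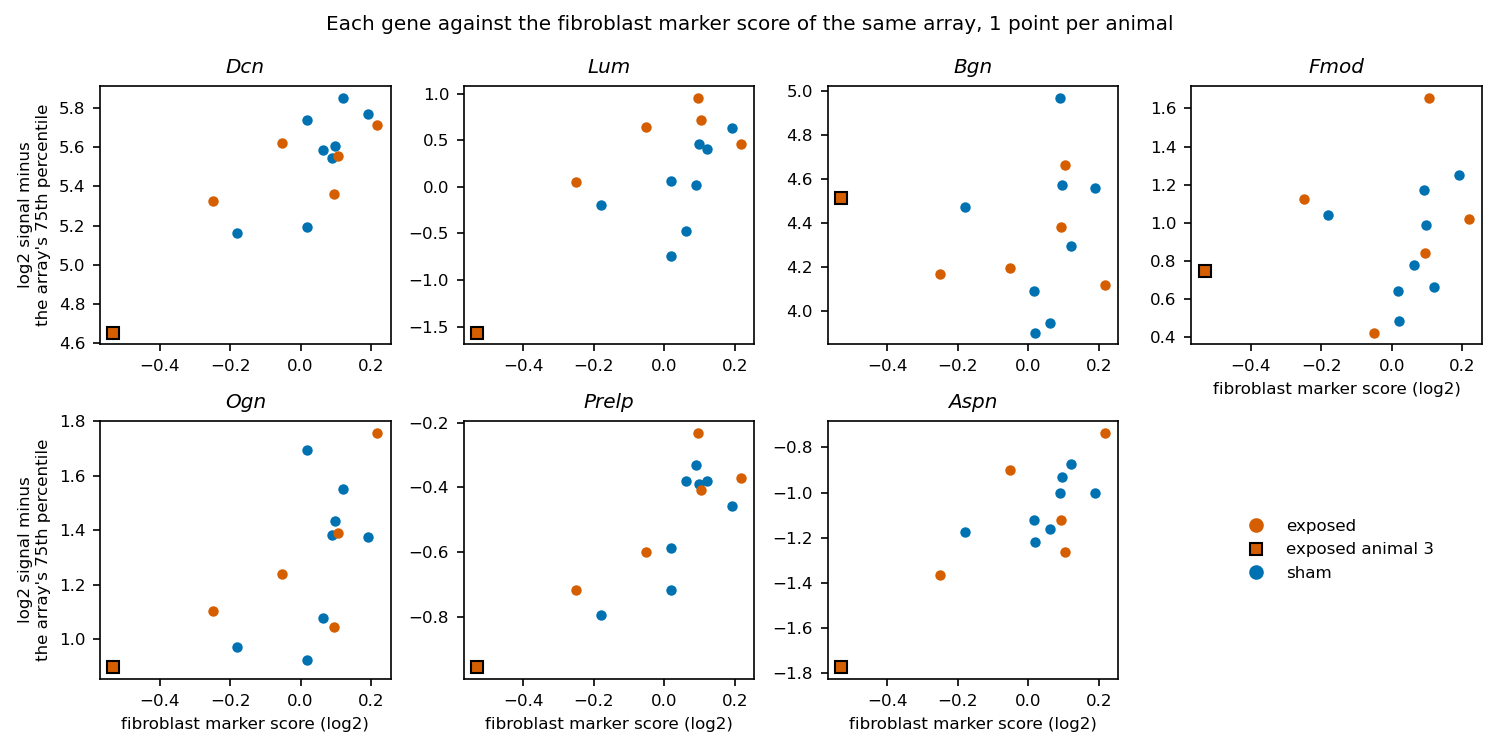
Level of each gene (log2 signal minus the array's 75th percentile) against the mean gene-centred log2 value of 17 fibroblast markers in the same animal, exposed and sham. Exposed animal 3 (square) has the lowest score, -0.53, and r over the 14 animals is 0.86 for Prelp, 0.85 for Dcn and 0.0028 for Bgn.

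For each gene the 3 genes of highest Pearson r over the 14 animals were taken from 11296 named genes, as a description only. For Dcn they were Sema3b, a secreted semaphorin (0.96), Ctsh, the protease cathepsin H (0.95), and Asah1, acid ceramidase (0.94). For Lum they were Tifa, an adaptor of NF-kappa-B signalling (0.95), Tent5c, a poly(A) polymerase (0.95), and Fahd2a (0.95). For Bgn they were Swap70 (0.87), Ralgdsl3 (0.85) and Rasgrp2, an exchange factor for Rap (0.84). For Fmod they were the adhesion molecule Igsf11 (0.78), the growth factor Tgfb3 (0.75) and Tril (0.75), all lower than for the other members.

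For Ogn they were Ddah2 (0.85), Itgbl1 (0.84) and Gask1b (0.83). For Prelp they were Serpinh1, the collagen chaperone (0.95), Efemp2, fibulin 4 of elastic fibres (0.93), and Ddr2, a collagen receptor kinase (0.92). For Aspn they were P2ry12, a nucleotide receptor (0.89), Kdelr2, a retrieval receptor of the secretory pathway (0.88), and Asah1 (0.87). Without exposed animal 3 these 21 correlations ran from 0.69, for Asah1 with Aspn, to 0.92, for Tifa with Lum.

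The fibril genes around the proteoglycans gave no call either, and 0 genes passed in limma in each of the 20 lists described here, with 0 to 2 genes in each at an unadjusted p under 0.05. All 7 measured collagens of the dermal fibril had lower means in exposed skin, with a median of -0.14, a range from -0.22 to -0.070 and 57.7% of all genes lower. The type I collagen gene Col1a1 differed by -0.16, Col3a1 of type III by -0.12, Col6a2 of type VI by -0.22 and Col5a1 of type V by -0.22. Most of this difference rested on exposed animal 3, since without it 2 collagens were higher and 5 lower, with a median of -0.029. Of the other proteins of fibril assembly and cross-linking 4 were higher and 18 lower, with the adhesion protein Tgfbi at -0.23 and fibulin 1 (Fbln1) at -0.40, and without exposed animal 3 the split was 9 higher and 13 lower. Among those proteins 2 had an unadjusted p under 0.05, both lower in exposed skin. Beside the counts of every list here and below stand 57.7% of all genes lower and 3.45% at an unadjusted p under 0.05 in limma.

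The enzymes that build the sugar chains were split. Linker enzymes, which start each chain, were 2 higher and 4 lower, with Xylt2, a xylosyltransferase, at -0.14 and B3gat3 at -0.070. Chondroitin and dermatan sulfate enzymes were 9 higher and 3 lower, with a median of 0.052, the polymerizing factor Chpf at -0.17 and the sulfotransferase Chst15 at 0.22. Keratan sulfate enzymes were 3 higher and 2 lower, with B4galt4 at -0.12 and B3gnt2 at 0.043. Other skin proteoglycans were 4 higher and 13 lower, with syndecan 4 (Sdc4) at -0.17 and serglycin (Srgn) at 0.12.

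Among growth factors and receptors that these proteoglycans bind or act on, 6 were higher and 17 lower, with integrin beta 1 (Itgb1) at -0.12 and the receptor kinase Erbb2 at -0.11. Genes known to rise with transforming growth factor beta were 6 higher and 7 lower, with Tgfbi at -0.23 and elastin (Eln) at -0.37. Of these 13 genes 2 had an unadjusted p under 0.05 in limma, both lower in exposed skin. Proteases known to cleave the family were 2 higher and 10 lower, with a median of -0.23, beside 57.7% of all genes lower. The membrane metalloproteinase Mmp14 differed by -0.30 and the gelatinase Mmp2 by -0.28. Of the 12 proteases 1 had an unadjusted p under 0.05 in limma, against 3.45% of all genes.

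Of the cell markers, 1 fibroblast marker was higher and 16 were lower (median -0.11), with the receptor Pdgfrb at -0.32 and the synthase Ptgis at -0.30. Without exposed animal 3 the fibroblast markers were 9 higher and 8 lower, with a median of 0.0049. Tendon and cartilage markers were 3 higher and 4 lower, with a median of -0.015, Comp at 0.32 and Cilp2 at 0.34. All 17 skeletal muscle markers were higher, with a median of 1.20, Myl1 at 2.46 ± 1.49 (SE) and Myh1 at 3.20 ± 1.99 (SE). Without exposed animal 2, which had the highest muscle score, 13 were higher and 4 lower, with a median of 0.43. Hair follicle markers were 17 higher and 1 lower, with Msx2 at 0.80 and Lef1 at 0.82, and a median of 0.73 that was 0.49 without exposed animal 6 and 0.48 without sham animal 1. With muscle and hair scores as covariates 0 of the 7 members passed in limma, as did 0 of all 18611 genes. Of the 7 differences 4 were positive, where the median over all genes was 0.0078.

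Epidermal markers were 2 higher and 8 lower, with the keratin Krt2 at -0.71 and Klf5 at -0.16. Adipocyte markers were 9 higher and 3 lower, with resistin (Retn) at 0.46 and the lipase Lpl at 0.19, and 7 higher and 5 lower without exposed animal 3. Endothelial markers were 4 higher and 6 lower, with Flt1 at -0.26 and Cdh5 at -0.21, and 0 higher and 10 lower without sham animal 6. Smooth muscle and pericyte markers were 6 higher and 6 lower, with a median of 0.00098, Notch3 at -0.28 and Kcnj8 at -0.20. Macrophage markers were 1 higher and 13 lower, with Cd68 at -0.23 and Csf1r at -0.29. Their median of -0.11 turned to 0.024 without exposed animal 3, with 8 higher and 6 lower, and 7 were higher and 7 lower without exposed animal 2. Schwann cell markers were 2 higher and 7 lower, with Ngfr at -0.23.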

How the data were processed

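Skin RNA of 14 rats, 6 exposed and 8 sham, was hybridised to one-colour Agilent arrays, 1 per animal, with groups taken from the treatment in the labels. Each spot's intensity in the deposited scanner files is linear and background-subtracted, as written by Agilent Feature Extraction 10.7.3.1 per the file headers. The authors' deposited table holds log2 values. Its normalization is not stated in the labels or headers, and after probe centring its columns correlated at 1.00 with quantile-normalized signals and at 0.901 to 0.992 with signals scaled to the 75th percentile. It was used as an alternative.

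Control spots and outlier spots (398 to 601 per array) were left out. The log2 processed signal minus each array's 75th percentile was averaged over the spots of a probe. Probes well above background on at least 6 arrays were kept, 21014 of 30367. Accessions were matched without version to RefSeq symbols (59.3% of probes), and the brightest kept probe stood for a gene. All 7 genes were well above background on 14 of 14 arrays, none was saturated, and Dcn had 10 spots and the others 2 per probe. Their number of arrays limits the precision.

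The comparison of groups used lmFit and eBayes of limma 3.58.1 (R 4.3.3, two-sided, Benjamini-Hochberg over all genes, threshold 0.05), with exact permutation tests for single genes. Correlations used permutations in Python 3.11.15 with numpy 2.4.6. The fit was tested on simulated data. Alternatives changed the background correction (normexp with an offset of 50 on the median spot signal), normalization, filters, probe choice, slide, array weights, variance model, tissue covariates and single arrays. The genes named were the 7 members, the 3 genes most like each over the animals (placeholder symbols that begin with LOC or RGD were passed over), the 2 genes of smallest p in each of 20 lists, Col1a1, Col3a1 and the measured other family members. Kera and Epyc were named beyond that rule. For 1 list a gene under the rule is not reported here. The members and lists were chosen with earlier results of these data known, so they are no independent support.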

Additional observations from a re-analysis of the deposited data

Results flagged for a closer look

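In exposed skin 2 values of exposed animal 3 lay far from those of the other exposed animals. Its Dcn level of 4.66 was the lowest of the 6 exposed animals, and the gap to the next animal took 0.633 of the whole range, above Dixon's limit of 0.625. Its Lum level of -1.56 was likewise the lowest, with a gap of 0.641 of the range. Both ends of 14 groups (7 genes in exposed and in sham skin) were looked at, and chance flags about 1 in 20 groups. The values of this animal in the other genes and in the list scores stand with the results above.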

How the results depend on the processing

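No gene passed the adjusted threshold between exposed and sham skin in limma under any of the alternatives run, and no member did either. At an unadjusted p under 0.05 the count over all genes ran from 290 within slide 4 to 2326 with array weights, beside 642 in the main setting. Of the 7 members 2 had a higher mean in exposed skin, but 4 did on slide 4 alone, when slide was a block, and with muscle and hair scores as covariates. The median difference over all genes was -0.045, -0.036 and 0.0078 in the same order. With single animals left out the number ran from 1 (without exposed animal 5) to 4 (without exposed animal 3). Signs turned as follows, and the cause was not tested. With slide as a block Bgn differed by 0.0705 and Ogn by 0.0936. Within slide 3 Lum differed by -0.0619, Bgn by 0.101 and Ogn by 0.187. Within slide 4 Dcn differed by 0.0546, Bgn by 0.0102, Fmod by -0.368 and Aspn by 0.213. With the mean of its probes Bgn differed by 0.0838. With array weights Ogn differed by 0.0942, and with muscle and hair scores as covariates Ogn differed by 0.0361 and Prelp by 0.0253. With single animals left out the difference ran from -0.254 to -0.0423 for Dcn, from 0.0377 to 0.542 for Lum, from -0.0756 to 0.0770 for Bgn, from -0.0457 to 0.200 for Fmod, from -0.167 to 0.0052 for Ogn, from -0.106 to 0.0392 for Prelp and from -0.225 to -0.0173 for Aspn. Between slides 1 gene was called without the filter on dim probes, and 2 genes were called for the difference between slides 3 and 4 after quantile normalization, where that of Bgn was 0.122. Of the 21 pairs, 7 passed in the main setting, 8 after quantile normalization and 8 in the authors' deposited table, and 0 without the 2 farthest animals, within slide 3 or without exposed animal 3. Of the 49 relations with other measures, 13 passed after quantile normalization and 0 in those 3 settings. Pairs of members that turned sign had r from -0.0619 (Dcn with Bgn) to 0.190 (Bgn with Prelp) in the main setting. Dcn with Bgn was 0.188 without the 2 farthest animals, 0.0877 without exposed animal 3, 0.516 after quantile normalization and 0.513 in the authors' deposited table, and Bgn with Ogn was 0.0814, 0.0112, 0.0402 and 0.0407 in the same order. Bgn with Prelp was -0.0977 without the 2 farthest animals and -0.349 within slide 3. Bgn with Aspn was 0.100 without exposed animal 3, 0.136 after quantile normalization and 0.137 in the authors' deposited table. Fmod with Aspn was 0.230 without the 2 farthest animals, 0.164 within slide 3 and 0.0589 with group and slide means removed. With the fibroblast score Bgn was -0.317 within slide 3. With array signal Lum was -0.0432 and Prelp -0.0145 without the 2 farthest animals, and Bgn was -0.133 within slide 3. Ogn with array signal was 0.164 without the 2 farthest animals, 0.640 within slide 3 and 0.0368 after quantile normalization. In the main setting these relations with array signal were 0.571 for Lum, 0.458 for Prelp, 0.403 for Bgn and -0.0885 for Ogn. The list counts with single animals left out, added after the data were seen, are given beside several of the lists in the results. Within slide 4 the 1 exposed array is assumed to vary like the others. No paired analysis was possible because the labels number no replicates and do not say which animals shared a cage, so animals are treated as independent.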
